A study of Homo sapiens with 6 samples.

Results

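Ribosome biogenesis and RNA polymerase I were followed through 60 named genes in 143B, a human osteosarcoma cell line. All 60 were found in the table of 22481 genes, and all 60 passed the filter on low counts that left 15387 genes for testing. The list was taken by gene symbol under a rule that names no measured value, but it was drawn up with earlier results of these data known. It holds 11 genes of RNA polymerase I transcription, 9 protein genes of small nucleolar ribonucleoproteins (snoRNPs), 19 genes of small subunit assembly and 17 of large subunit assembly. The remaining 4 genes, NCL, NPM1, NOLC1 and TCOF1, encode general nucleolar proteins and were kept as a group of their own.

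The 143B cells were grown for 24 h in the 6 wells of 1 plate. Celastrol, a triterpenoid from the thunder god vine, was then added to 3 wells for 24 h, and the other 3 wells, set at random, were left as the control for the same time. The labels give no genotype for these cells, no dose and no vehicle, and every well came from the same line in the same plate. Each library is 1 well, so the spread between replicates is that between wells of 1 plate and may be technical. Levels are means over a well of cells, in which fewer cells of a type and less RNA per cell cannot be told apart.

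Ribosome production starts in the nucleolus, where RNA polymerase I copies the ribosomal DNA repeats into a long precursor RNA. Small nucleolar RNAs, carried by snoRNP proteins, guide methylation and pseudouridylation of that precursor, and assembly factors fold and cut it while ribosomal proteins join. The pathway is among the heaviest users of energy in growing cells and is stimulated by the transcription factor MYC and by mTOR signalling. The libraries were made from poly(A) RNA, so they report the messenger RNAs of this machinery and neither the ribosomal RNA nor the rate at which it is made.

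Library totals were even, at 38.4 to 39.5 M counts. Replicates of a group differed beyond sampling noise (chi-square of 6.49 to 20.9 for each degree of freedom), so no library was a copy of another. Of 8 bone and mesenchymal markers, 5 were tested, of which 3 were lower, 1 was higher and 1 was not called. VIM stood at 2499 to 2588 CPM (counts as a rate of the library total, scaled with TMM factors) in celastrol wells and at 3275 to 3559 CPM in control wells, and RUNX2, a regulator of bone cells, at 17.4 to 18.8 CPM in celastrol wells and 30.5 to 35.8 CPM in control wells. ALPL was also lower, COL1A1 was higher, at 11.3 to 14.8 CPM in celastrol wells and 7.19 to 10.1 CPM in control wells, and SPARC was not called. SP7, BGLAP and COL1A2, which mark bone-forming cells, had at most 6 counts in any library, as had the leukocyte marker PTPRC, and the endothelial marker PECAM1 had at most 11. Of the epithelial markers, KRT8 was lower, at 299.7 to 317 CPM in celastrol wells and 359 to 366 CPM in control wells. EPCAM had 6.67 to 7.14 CPM in celastrol wells and 5.71 to 6.497 CPM in control wells, without overlap but not called. The part of these marker levels in the results was not tested.

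This machinery took a larger share of the counts in celastrol wells than in control wells, but the rise was modest and uneven. Of the 60 genes, 27 were called higher and 3 lower (adjusted p under 0.05, edgeR quasi-likelihood test), or 45% and 5%. Among all tested genes, 23.6% were called higher, 24.8% lower and 48.4% either way. The share of the 60 genes called in either direction, 50%, was thus close to the background, while the calls were mostly upward. The other 30 genes had no call. The median log2 fold change, celastrol over control, was 0.135 over the 60 genes and -0.000237 over all tested genes. It ran from -0.60 for TAF1D to 1.06 for UBTF, which was the only member to reach a 2-fold difference.

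Every celastrol well lay above every control well in 33 of the 60 genes, against 28.4% of all tested genes, and every celastrol well lay below every control well in 4, against 28.6% of all. A positive fold change was seen in 43 genes and a negative one in 17. Without control replicate 1 the genes called lower numbered 5, NOB1 and GNL3 being added, and without control replicate 3 the number was 1, since POLR1D and LYAR lost their calls.

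**Figure D1:**
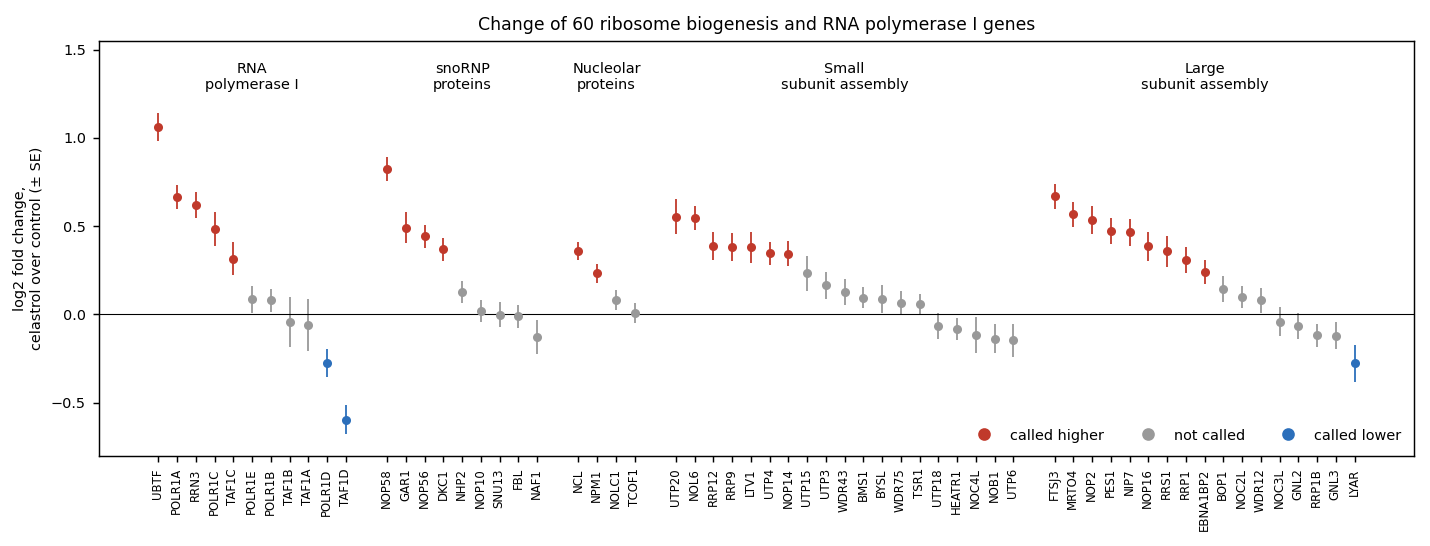
The log2 fold change (celastrol over control) of each of the 60 genes in its role group, with bars of 1 standard error and colours for the call. UBTF stands apart at 1.06 and TAF1D is lowest at -0.60, while most genes lie between 0 and 0.6.

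Together the 60 genes took 0.986%, 0.960% and 1.01% of all counts in the celastrol wells, against 0.813%, 0.802% and 0.826% in the control wells. The groups did not overlap. NCL and NPM1 carried a large part of these counts, and without them the share was 0.648% ± 0.0214 with celastrol and 0.549% ± 0.0113 in control wells (SD, n = 3). Summed CPM was higher with celastrol in all 5 role groups. The RNA polymerase I genes summed to 836 ± 34.5 CPM with celastrol and 650 ± 20.3 in control wells, and the snoRNP genes to 1417 ± 48.1 CPM with celastrol and 1191 ± 41 in control wells. The small subunit genes summed to 1633 ± 38.3 CPM with celastrol and 1471 ± 28.7 in control wells, and the large subunit genes to 1880 ± 88.4 CPM with celastrol and 1659 ± 58.9 in control wells. The 4 nucleolar genes summed to 3942 ± 95.4 CPM with celastrol and 3286 ± 50.4 in control wells.

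These are well expressed genes. On the deposited FPKM scale, which is per length of transcript, their control level had a median of 26.9, with TAF1A lowest at 2.51 and NPM1 highest at 514, against a median of 4.62 over all tested genes. By group, the median control level was 13.1 FPKM for RNA polymerase I, 21.3 for small subunit assembly, 29.4 for large subunit assembly, 58.0 for snoRNP proteins and 237 for the nucleolar group. Their median coefficient of variation was 4.6% in celastrol wells and 5.44% in control wells. Over all tested genes it was 7.59% in celastrol wells and 9.92% in control wells. The sets were not matched for level, and whether the higher level accounts for the smaller spread was not tested.

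Wells moved across the list as a whole. Celastrol replicate 2 was the lowest of its group in 41 of the 60 genes (68.3%), against 36.5% of all tested genes, and celastrol replicate 3 was the highest in 37 (61.7%), against 33.0%. Control replicate 3 was the highest of its group in 35 genes (58.3%), against 31.6%. The 60 genes therefore shared deviations between wells and are not independent observations of the treatment. With celastrol replicate 2 and control replicate 1 both left out, 30 of the genes were higher and 4 lower.

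**Figure D2:**
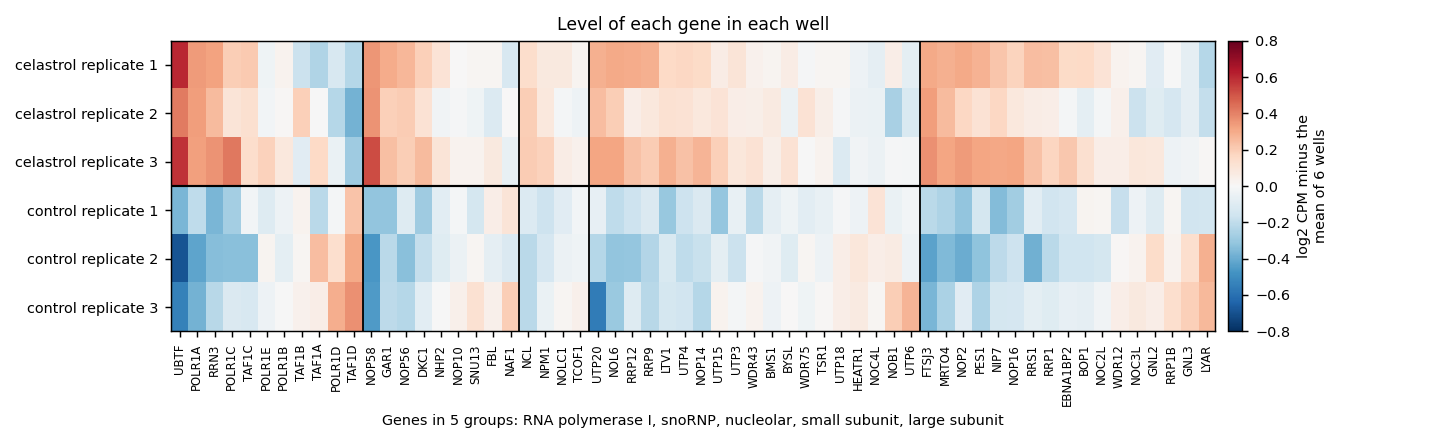
Level of each gene in each of the 6 wells, as log2 CPM minus the gene's mean over the wells, with celastrol wells above the line and control wells below it. Red columns in the upper rows mark the genes that were higher with celastrol, and celastrol replicate 2 is the palest of its group in many of them.

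Promoter sequences were read for 50 of the 60 genes, from RefSeq (GRCh38.p14), as 250 bases before to 50 bases after an annotated start. It is called the gene start here, but in some genes, such as BYSL, PES1 and UBTF, it lies inside the annotated span of the gene. The 6 letters CACGTG, known as the E-box, are the motif that MYC with its partner MAX and related factors bind, and read the same on both strands. At least 1 lay in 17 of the 50 promoters (34.0%), against 9.91% of the promoters of 12291 tested genes and 7.43% of all 27305 promoters of that length. In 12 of the 50 (24.0%) the motif lay after the gene start, as it did in 137 of the 12291 tested genes (1.11%). The following 30-base windows show the motif in capitals, read 5′ to 3′ on the gene's strand, in 4 genes that were called higher and then in 2 that were not called.
MRTO4: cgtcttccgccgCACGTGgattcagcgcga
NOL6: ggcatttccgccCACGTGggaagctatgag
NOP14: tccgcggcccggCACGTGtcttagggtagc
UTP20: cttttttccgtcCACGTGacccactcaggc
FBL: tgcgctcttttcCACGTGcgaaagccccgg
GNL2: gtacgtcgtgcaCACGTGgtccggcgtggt

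The MRTO4 window is chr1:19251807-19251836 on the plus strand and that of UTP20 chr12:101280083-101280112 on the plus strand. On the minus strand lie the windows of NOL6 (chr9:33473894-33473923), NOP14 (chr4:2963374-2963403), FBL (chr19:39846356-39846385) and GNL2 (chr1:37595917-37595946). Counted from the gene start, the first base of the motif is at +15 in MRTO4, +14 in NOL6, +16 in NOP14, +7 in FBL and +4 in GNL2, while in UTP20 it lies 10 bases before the start.

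By role, the motif was found in 9 of 18 promoters of small subunit genes, 6 of 14 of large subunit genes, 2 of 6 of snoRNP genes 0 of 2 of the nucleolar group and 0 of 10 of RNA polymerase I genes. By call, it lay in 10 of 24 promoters of genes called higher (41.7%), in 7 of 23 of genes not called (30.4%) and in 0 of the 3 called lower. These shares were not tested against each other. For comparison, it lay in 23 of 95 promoters of other ribosome biogenesis genes (24.2%) and in 3 of 62 of cytosolic ribosomal protein genes (4.84%). The median GC content was 64.2% in the 50 promoters and 65.3% in those of all tested genes. CCGGAAGT, the core that ETS family factors bind, was searched on both strands and lay in 10 of the 50 promoters, against 8.12% of all tested ones. CCAAT, the NF-Y motif, lay in 42.0% of the 50, against 35.9% of all tested ones. A match is a run of letters and is not evidence of binding.

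**Figure D3:**
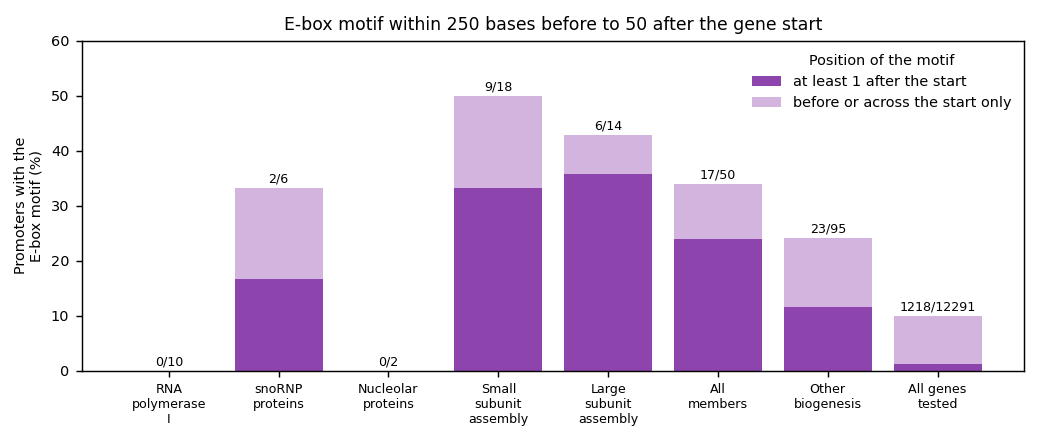
Percentage of promoters with the E-box letters in each role group, in all members, in other ribosome biogenesis genes and in all tested genes, with the part that has a motif after the gene start in the dark colour. Small and large subunit genes stand highest and the RNA polymerase I and nucleolar groups have none.

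MYC itself, which is not among the 60, was lower with celastrol. It had 15.3, 11.6 and 16.7 CPM in celastrol wells, against 30.2, 32.1 and 39.5 CPM in control wells. Its log2 fold change was -1.22 ± 0.135 (SE; adjusted p = 1.81e-06), and the groups did not overlap. MAX, the partner of MYC, was higher (0.56, adjusted p = 7.07e-06), and so were MTOR (0.23, adjusted p = 0.00445) and RPTOR (0.49, adjusted p = 6.89e-05), which encode the mTOR kinase and its scaffold. Of the 7 regulators listed, 3 were higher, 2 lower and 2 not called. The lowest log2 fold change among them, -2.53, was in a gene other than MYC. Whether these levels and those of the 60 genes are related was not tested.

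Among the 11 RNA polymerase I genes, 5 rose, 2 fell and 4 were not called, and the largest changes of the whole list, up and down, both lay here. UBTF, which binds ribosomal DNA along the gene and keeps it open for transcription, lies at chr17:44205040-44221304. It had 226, 199 and 223 CPM in celastrol wells, against 116, 92.7 and 103 CPM in control wells. Every celastrol well was well above every control well, and the log2 fold change was 1.06 ± 0.0787 (2.09-fold, adjusted p = 1.89e-08). RRN3, the initiation factor that joins the polymerase to the promoter complex, had 77.8, 74.2 and 79.8 CPM with celastrol, against 48.3, 49.1 and 53.4 CPM in control wells. It rose by 0.62 ± 0.074 (adjusted p = 2.48e-06), with no overlap. The annotation names 4 pseudogenes of RRN3, so its counts could be split with them.

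POLR1A, the catalytic large subunit of the polymerase, lies at chr2:86020216-86105886. It had 146, 145 and 145 CPM in celastrol wells, against 100.2, 85.8 and 88.6 CPM in control wells. The celastrol wells were almost identical and all above the controls, and the gene rose by 0.67 ± 0.0687 on the log2 scale (adjusted p = 4.82e-07). POLR1B encodes the other large subunit of the same active centre. It had 82.5, 81.4 and 86.1 CPM with celastrol, against 78.9, 76.9 and 80.8 CPM in control wells. The wells did not overlap, but the difference of 0.08 ± 0.0666 did not pass the test (adjusted p = 0.341).

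The subunits that RNA polymerase I shares with RNA polymerase III differed from each other. POLR1C rose (0.48, adjusted p = 0.000462). POLR1D had 91.3, 85.1 and 96.3 CPM in celastrol wells, against 98.6, 110 and 122 CPM in control wells, and was called lower (-0.28 ± 0.079, adjusted p = 0.00748). Its highest celastrol well lay just under its lowest control well, and the call was lost without control replicate 3 (adjusted p = 0.0536). POLR1E, a subunit of the polymerase's peripheral heterodimer, was at 0.08 and was not called.

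SL1, the promoter selectivity factor, is made of TBP and the TAF1 proteins, and its genes did not move as a block. TAF1D had 35.8, 32.2 and 34.4 CPM in celastrol wells, against 49.2, 51.7 and 54.1 CPM in control wells. All celastrol wells lay below all control wells, at -0.60 ± 0.083 (adjusted p = 1.28e-05). The span of TAF1D holds 8 annotated snoRNA genes on its strand, more than that of any other member. TAF1C rose by 0.32 (adjusted p = 0.00943), a call that was lost without control replicate 2 (adjusted p = 0.0655). TAF1A at -0.06 and TAF1B at -0.04 were not called, at about 10 to 12 CPM in both groups, with standard errors of 0.15 and 0.14. TBP, which is outside the list, rose by 0.41 (adjusted p = 0.00517).

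**Figure D4:**
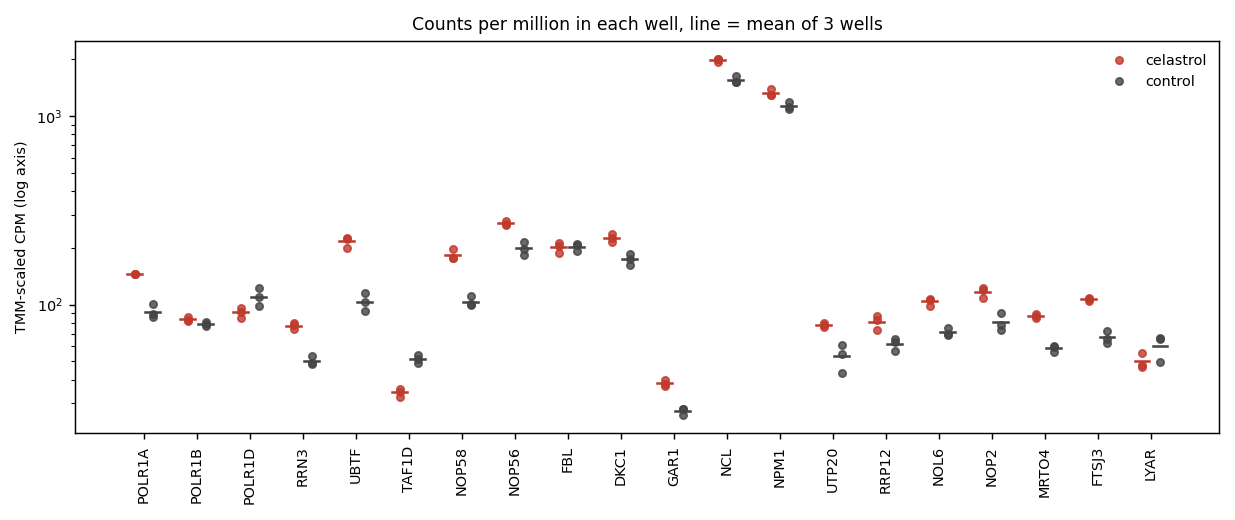
CPM on a log axis in each celastrol well and each control well of 20 genes, with a line at the mean of 3 wells. The groups are separate for most genes, FBL overlaps fully, and TAF1D, POLR1D and LYAR have lower celastrol means.

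Of the 9 snoRNP protein genes, 4 rose and 5 were not called, and 0 fell by edgeR, DESeq2 or limma-voom, or at an unadjusted p under 0.05. The box C/D snoRNPs guide 2′-O-methylation and have 4 core proteins, whose genes differed. NOP58, a scaffold of that particle, had 176, 177 and 198 CPM in celastrol wells, against 111, 99.9 and 101 CPM in control wells. The gap between the groups was wide, and the gene rose by 0.82 ± 0.0686 (1.77-fold, adjusted p = 4.15e-08). NOP56, the partner scaffold, had 278, 266 and 265 CPM with celastrol, against 216, 183 and 197 CPM in control wells. It also rose, by 0.44 ± 0.0648 (adjusted p = 2.28e-05), with no overlap.

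FBL, the fibrillarin methyltransferase of the same particle, stayed within the spread of its wells. It had 204, 187 and 213 CPM in celastrol wells, against 209, 192 and 208 CPM in control wells. The fold change was -0.01 ± 0.0648 on the log2 scale (adjusted p = 0.897), and the groups overlapped fully. SNU13, which binds the bend in the guide RNA, was likewise not called, at 155 ± 3.56 CPM with celastrol and 155 ± 13.9 in control wells (SD, n = 3).

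The box H/ACA snoRNPs guide pseudouridylation. DKC1, the pseudouridine synthase of that particle, had 226, 214 and 235 CPM in celastrol wells, against 163, 174 and 186 CPM in control wells. It rose by 0.37 ± 0.0652 (adjusted p = 0.000146), with no overlap. GAR1, which contacts the catalytic face of DKC1, had 39.6, 36.8 and 38.1 CPM with celastrol, against 25.8, 27.8 and 27.9 CPM in control wells. It rose by 0.49 ± 0.0876 (adjusted p = 0.000166). The other core proteins, NHP2 (0.12) and NOP10 (0.02), and NAF1 (-0.13), which stands in for GAR1 during assembly, were not called.

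In the nucleolar group, NCL and NPM1 rose, while NOLC1 (0.08) and TCOF1 (0.01), a snoRNP chaperone and a cofactor of ribosomal DNA transcription, were not called. NCL encodes nucleolin, which binds the nascent precursor RNA. It had 1933, 2006 and 2018 CPM in celastrol wells, against 1623, 1511 and 1510 CPM in control wells, a rise of 0.36 ± 0.0501 (adjusted p = 1.31e-05). NPM1, nucleophosmin, a major structural protein of the nucleolus, had 1294, 1300 and 1394 CPM with celastrol, against 1093, 1119 and 1184 CPM in control wells. The rise was 0.23 ± 0.0528 (adjusted p = 0.00142). Neither gene overlapped between groups, but 50 annotated pseudogenes carry the name of NPM1, so its counts could be split among copies.

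Small subunit assembly takes place in the processome, a large particle that forms on the growing precursor around the U3 snoRNA. Of its 19 genes, 7 rose and 12 were not called, and 0 fell by edgeR, DESeq2 or limma-voom, or at an unadjusted p under 0.05. The median was 0.128. NOL6, a processome component, had 106, 98.5 and 107 CPM in celastrol wells, against 74.7, 69.1 and 69.9 CPM in control wells. It rose by 0.55 ± 0.0687 (adjusted p = 4.5e-06), with a clear gap between the groups. UTP20, a long helical repeat protein of the particle, had 77.8, 75.9 and 79.7 CPM with celastrol, against 61.2, 54.5 and 43.4 CPM in control wells. The rise was 0.55 ± 0.0983 (adjusted p = 0.000208), and the control wells were spread far more than the celastrol wells. RRP12, which acts in export and late maturation of the subunit, had 86.6, 73.1 and 82.8 CPM in celastrol wells, against 62.9, 56.9 and 65.6 CPM in control wells. It rose by 0.39 ± 0.0807 (adjusted p = 0.00069).

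The other small subunit genes that rose were LTV1, a factor of the late cytoplasmic stage (0.38), RRP9, a protein of the U3 snoRNP (0.38), UTP4, of the early UTPA complex (0.35), and NOP14, which binds the precursor of the small subunit (0.34). The rest of the 19 genes did not pass. Among them, of UTPA like UTP4, were UTP15 (0.23), WDR43 (0.13), WDR75 (0.07) and HEATR1 (-0.08). UTP6 (-0.15) and UTP18 (-0.07), of the UTPB complex, were not called either. Neither were UTP3 (0.16), BYSL (0.09), the GTPase BMS1 (0.09), its relative TSR1 (0.06) and NOC4L (-0.12), the partner of NOP14. NOB1, the nuclease that makes the final cut of the 18S RNA, had 121, 97.4 and 116 CPM with celastrol, against 112, 122 and 133 CPM in control wells, and was not called (-0.14, adjusted p = 0.175). It was called lower only without control replicate 1 (adjusted p = 0.0399).

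Large subunit assembly gave the highest median, 0.241, with 9 of 17 genes higher, 1 lower and 7 not called. FTSJ3, an RNA methyltransferase of the pre-60S particle, had 104, 107 and 109 CPM in celastrol wells, against 72.7, 62.8 and 65.7 CPM in control wells. It rose by 0.67 ± 0.0712 (adjusted p = 7.1e-07), with no overlap. Exons of PSMC5, a proteasome gene, cover 16.8% of its exon bases on the opposite strand, and PSMC5 was itself higher (0.44). The average log2 CPM was 7.46 for PSMC5 and 6.44 for FTSJ3. MRTO4, which holds the place of the stalk protein on the maturing subunit, had 86.8, 84.9 and 88.6 CPM with celastrol, against 60.2, 55.7 and 59.8 CPM in control wells. It rose by 0.57 ± 0.0697 (adjusted p = 3.48e-06).

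NOP2, a cytosine methyltransferase of the 28S RNA, had 119, 108 and 122 CPM in celastrol wells, against 77.6, 73.3 and 90.7 CPM in control wells. It rose by 0.53 ± 0.0801 (adjusted p = 2.95e-05), although 54.4% of its exon bases are shared with an annotated gene on the same strand. Such sharing also reached 27.7% in LTV1 and 11.4% in RRS1, which were both called higher. LYAR, a nucleolar zinc finger protein, was the one member of the group called lower. It had 46.8, 48.0 and 55.2 CPM with celastrol, against 49.5, 66.8 and 65.6 CPM in control wells. The groups overlapped, and the call (-0.28 ± 0.105, adjusted p = 0.0384) was lost in 7 alternatives, with adjusted p-values of 0.0696 to 0.171. They were scaling by library size alone, limma on FPKM with either pseudocount, and leaving out celastrol replicate 1, celastrol replicate 2, control replicate 2 or control replicate 3.

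PES1, BOP1 and WDR12 form one complex that processes the precursor of the large subunit RNAs, and their genes differed in size of change. PES1 rose (0.47, adjusted p = 3e-05), while BOP1 (0.14, adjusted p = 0.122) and WDR12 (0.08, adjusted p = 0.382) were not called. Whether PES1 changed more than its partners was not tested. NIP7 (0.46), NOP16 (0.38), RRS1 (0.36), which helps to bring in the 5S particle, RRP1 (0.31) and EBNA1BP2 (0.24) rose as well. EBNA1BP2 lost its call without celastrol replicate 3 (adjusted p = 0.0719). The GTPases GNL2 (-0.07) and GNL3 (-0.12, nucleostemin), the export-linked NOC2L (0.10) and NOC3L (-0.04), and RRP1B (-0.12), the paralog of RRP1, were not called.

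The members were also sorted by 2 features of their loci. Within the spans of 9 members, on the same strand, lie 34 annotated snoRNA genes (GENCODE 29), among them GNL3 with 6, NOP56 with 5 and NOP58 with 4. Whether each lies in an intron was not checked. Of these 9 hosts, 5 were higher, 1 lower and 3 not called, and of the 51 other members 22 were higher, 2 lower and 27 not called. In 9 members at least 10% of exon bases lie opposite the exons of another gene. The sources used here do not say whether counting used the strand, so reads of these members and their partners may not have been told apart. For 3 of the 5 that were called higher (NOP16, NIP7 and EBNA1BP2), the opposite gene (ARL10, COG8 and CFAP57) was not itself called higher. For the other 2, NOP14 and FTSJ3, it was: NOP14-AS1 covers 17.1% of the exon bases of NOP14 and was at 0.97, and PSMC5 was named above. Unlike PSMC5, NOP14-AS1 was far below its partner in level, at an average log2 CPM of 3.25 against 6.45 for NOP14.

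Outside the 60, the rest of the pathway was read from lists of 106 further genes, of which 43 were higher, 8 lower and 55 not called, with a median of 0.154. The 8 lower became 4 without celastrol replicate 1, celastrol replicate 2 or control replicate 2, and 5 without celastrol replicate 3 or control replicate 3. They became 11 without control replicate 1, and 12 with celastrol replicate 2 and control replicate 1 both left out. For small subunit assembly the counts were 18 higher and 1 lower of 35. UTP14A, a processome protein, had the largest rise among them (1.01, adjusted p = 4.35e-08). The 1 lower became 0 when any 1 celastrol well or control replicate 2 was left out or with library size alone, and 2 without control replicate 1. For large subunit assembly the counts were 13 higher and 4 lower of 38. The 4 lower became 1 without celastrol replicate 1 or with library size alone, and 2 without celastrol replicate 2, control replicate 2 or control replicate 3. They became 5 without control replicate 1, and 6 with celastrol replicate 2 and control replicate 1 both left out. The values ran up to that of RRP15, at 0.91, and down to that of EFL1, the GTPase that helps release EIF6 from the finished subunit, at -1.08 (adjusted p = 3.89e-07). EIF6 itself rose (0.48). The other genes listed for RNA polymerase I transcription gave 6 higher and 1 lower of 11. The 6 were POLR1G (0.31, adjusted p = 0.0382), TBP, and POLR2E, POLR2F, POLR2K and POLR2L, which are named as RNA polymerase II subunits. POLR1F, POLR1H and TTF1 were not called. The one that fell was BAZ2A, a subunit of the complex that silences ribosomal DNA (-0.44, adjusted p = 8.82e-06), and without celastrol replicate 1 the number higher was 2.

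The snoRNP assembly factors gave 3 higher and 1 lower of 8 (37.5% and 12.5%). The RNA exosome, which trims the precursor, gave 3 higher and 1 lower of 14. Its 21.4% higher was close to the 23.6% of all tested genes, and its 7.14% lower was under their 24.8%. Among genes of the other polymerases, 4 were higher and 0 lower of 7 for RNA polymerase II (also 0 lower with limma-voom, with DESeq2 or with no adjustment of p). For RNA polymerase III, 5 were higher, 2 lower and 4 not called of 11, against the background of 23.6% higher and 24.8% lower. Leaving out 1 well lowered the RNA polymerase II count to 2, which was the case for celastrol replicates 1 and 3 and control replicates 2 and 3.

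The ribosomal proteins are what this machinery assembles. Of their 78 cytosolic genes, 48 were called lower and 3 higher, with a median of -0.156. They summed to 78850 ± 1510 CPM with celastrol and 87510 ± 3760 in control wells (SD, n = 3). The largest falls were in RPL12 (-0.39), RPL17 (-0.32) and RPL26 (-0.30), and the 3 that rose were RPS10 (1.12), RPS26 (0.48) and RPL6 (0.20). The count of 48 depended on scaling and on single wells. It was 29 with library size alone, 31 without celastrol replicate 1, 26 without celastrol replicate 2 and 29 without control replicate 3, with 3 higher in each. In the other direction, it was 52 without control replicate 1, and 57 with upper quartile scaling or with the replicate number as a block.

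**Figure D5:**
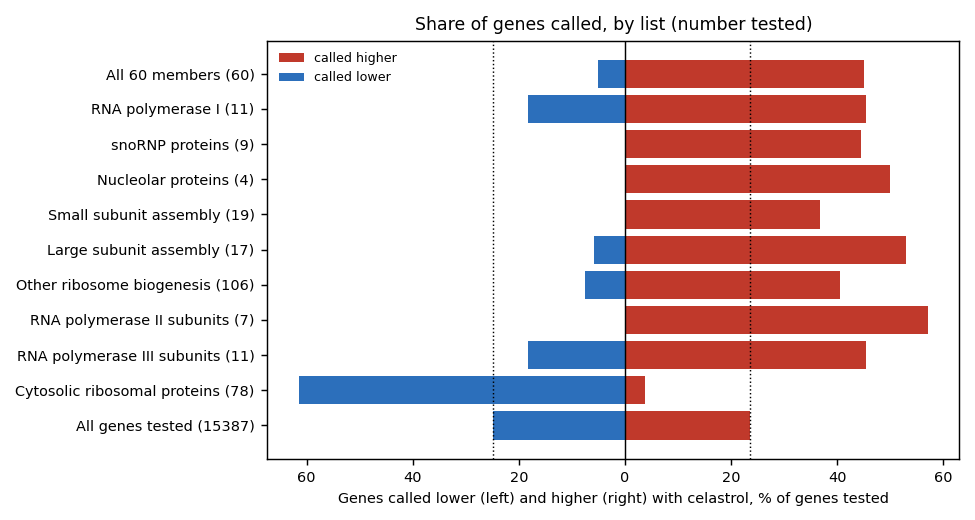
Percentage of tested genes called lower (left) and higher (right) with celastrol in each role group, in the comparison lists and among all tested genes, whose shares are the dotted lines. All 5 role groups pass the right-hand line and stay short of the left-hand one, while 61.5% of cytosolic ribosomal protein genes are on the left.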

How the data were processed

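RNA-seq of poly(A) RNA was made from 3 celastrol wells and 3 control wells, with a dUTP strand-marking kit per the labels' protocols. The submitters' processing notes name hg38 as the build and list StringTie 2.1.6, HISAT2 2.2.1, cutadapt 1.9, edgeR and DESeq2. What each did, the annotation and the counting settings are not given in the sources used here. In the deposited table are the authors' unnormalized read counts for 22481 genes. The deposited FPKM values were made by the authors from these counts, and both gave the same gene length in 20198 genes (relative difference up to 6.7e-16). The limit behind a 0 is 3 counts, equal to 0.076 to 0.0781 CPM, for counting error only.

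Counts were filtered with filterByExpr, scaled by TMM and tested with edgeR 4.0.16 (quasi-likelihood, robust, R 4.3.3), with Benjamini-Hochberg adjustment over 15387 genes and a threshold of 0.05. The script was tested on simulated data. Standard errors are the absolute log2 fold change over the square root of F. Alternatives used DESeq2 1.42.0 and limma 3.58.1 (voom, and trend on log2 of FPKM plus 1 or 0.1). Values in every well are given for 10 fixed genes, the 3 largest calls of each role with groups that do not overlap, and every member called lower. The members, the lists and the motifs were chosen with earlier results of these data known, so no list was tested as a set.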

Additional observations from a re-analysis of the deposited data

How the results depend on the processing

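Of the 30 called genes among the 60, 26 held their call and direction under every alternative that was run, and 4 (POLR1D, TAF1C, LYAR and EBNA1BP2) lost the call in at least 1. Of the 30 without a call, 7 (NHP2, UTP3, UTP15, NOB1, BOP1, GNL3 and NOC2L) gained one in at least 1, and 0 turned direction with a call. The count called higher was 26 to 31 over all alternatives. The count called lower was 1 to 5 with 1 well left out, and 2 with library size alone or with limma on FPKM. Library size alone gave 4170 genes higher and 3382 lower in the whole table, and 31 and 2 among the 60. The lists outside the 60 varied more at small counts. The 106 other biogenesis genes had 8 lower, but 3 with library size alone and 12 without both celastrol replicate 2 and control replicate 1.

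The labels do not say that a replicate number pairs wells. Over genes, the deviations of same-numbered wells correlated at 0.059, 0.045 and 0.0322, and those of differently numbered wells at -0.0562 to 0.00998. Values this small cannot decide whether the wells were paired. With the replicate number as a block, 28 of the 60 genes were higher and 3 lower, and 3831 and 3928 of all genes. Depth was even and did not separate the groups. The limit is the number of wells, 3 a group on 1 plate, and genes at about 10 CPM such as TAF1A and TAF1B have the widest errors.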
